A study of Homo sapiens with 6 samples.

Results

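The spliceosome, SR and hnRNP genes described here are 59 genes of pre-mRNA splicing, picked by symbol from a count table of 60649 genes. All 59 were found and all were among the 16039 genes expressed enough to test. They comprise 33 proteins of the splicing machinery itself (small nuclear ribonucleoprotein, SF3, U2AF and PRPF proteins), 10 SR proteins and 16 hnRNP proteins. RNA was sequenced from 786-O cells, a long-established line of human clear cell kidney cancer without functional VHL, in 3 groups of 2 libraries. Cells carried the hairpin shRNA1 or the hairpin shRNA2, both against the long non-coding RNA LINC02068, or the control hairpin shControl. All groups were the same line without a further treatment. How the hairpins were delivered, for how long, and whether the cells were selected or cloned is not given in the sources used here.

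Splicing removes introns from pre-mRNA. The U1 ribonucleoprotein marks the donor site, U2AF and the U2 ribonucleoprotein with its SF3A and SF3B parts mark the acceptor and the branch site, and the U4/U6.U5 tri-snRNP then joins to form the active machine. SR proteins mostly bind exons and help to recruit these parts, while hnRNP proteins coat the transcript and often act against exon use. Many SR and hnRNP genes limit their own level by splicing in an exon or keeping an intron that sends the transcript to nonsense-mediated decay (NMD).

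Total counts ran from 15376448 to 37311846 per library, so 1 CPM (counts-per-million over library sizes scaled by TMM) stood for 14.9 to 36.0 counts. The lowest count of any of the 59 genes in any library was 114. LINC02068 stood at 0.605 and 0.105 CPM with shRNA1, 0.472 and 0.478 with shRNA2, and 1.07 and 1.14 in the controls. Neither hairpin alone passed the edgeR test for it (adjusted p = 0.069 and 0.148), and their mean passed narrowly (0.0447). The controls stood apart from all knockdown libraries on the first principal component (55.3% of variance), and shRNA1 replicate 1 stood apart on the second (15.1%), at 50.4 against −23.0 to 4.99. The 6 markers fixed for the renal carcinoma line were all present, and all 6 passed the edgeR test for the mean of both hairpins. PAX8 (306 to 335 CPM), VIM, CDH2 and NNMT rose slightly, by 0.10, 0.21, 0.19 and 0.26 on the log2 scale. PAX2 rose more (33.6 to 36.7 CPM with the hairpins, 23.3 and 24.7 with shControl) and AXL fell (510 to 541 CPM, then 936 and 942). Of 12 markers of immune, endothelial, other epithelial and fibroblast cells, PTPRC, CD3E, CDH5 and DCN were among those at 0 in every library. The 12 summed to 5.64 to 7.59 CPM with the hairpins and to 10.9 and 11.9 CPM with shControl, most of it LUM, and their part in the results was not tested. In bulk RNA, fewer cells of a kind and less RNA per cell cannot be told apart.

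With LINC02068 hairpins most of these genes rose together, and the SR proteins did not move as 1 class. For the mean of both hairpins against shControl, 48 of the 59 genes rose and 6 fell, and 5 did not pass (edgeR quasi-likelihood test, adjusted p under 0.05 over all 16039 genes). Of all tested genes 28.6% rose and 28.9% fell, 57.5% in either direction, so calls were common in these libraries and the members stand beside them by their direction. The median log2 fold change of the 59 was 0.56 (range −0.50 to 1.65), beside −0.025 over all tested genes. The rises were moderate: 27 genes were called and over 1.5-fold higher, and none was over 1.5-fold lower. Of all tested genes 37.9% passed that size in either direction, called or not, so the 2 measures are unlike. In 48 genes all 4 knockdown libraries lay above both controls and in 6 all lay below, beside 32.7% and 34.2% of tested genes.

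**Figure D1:**
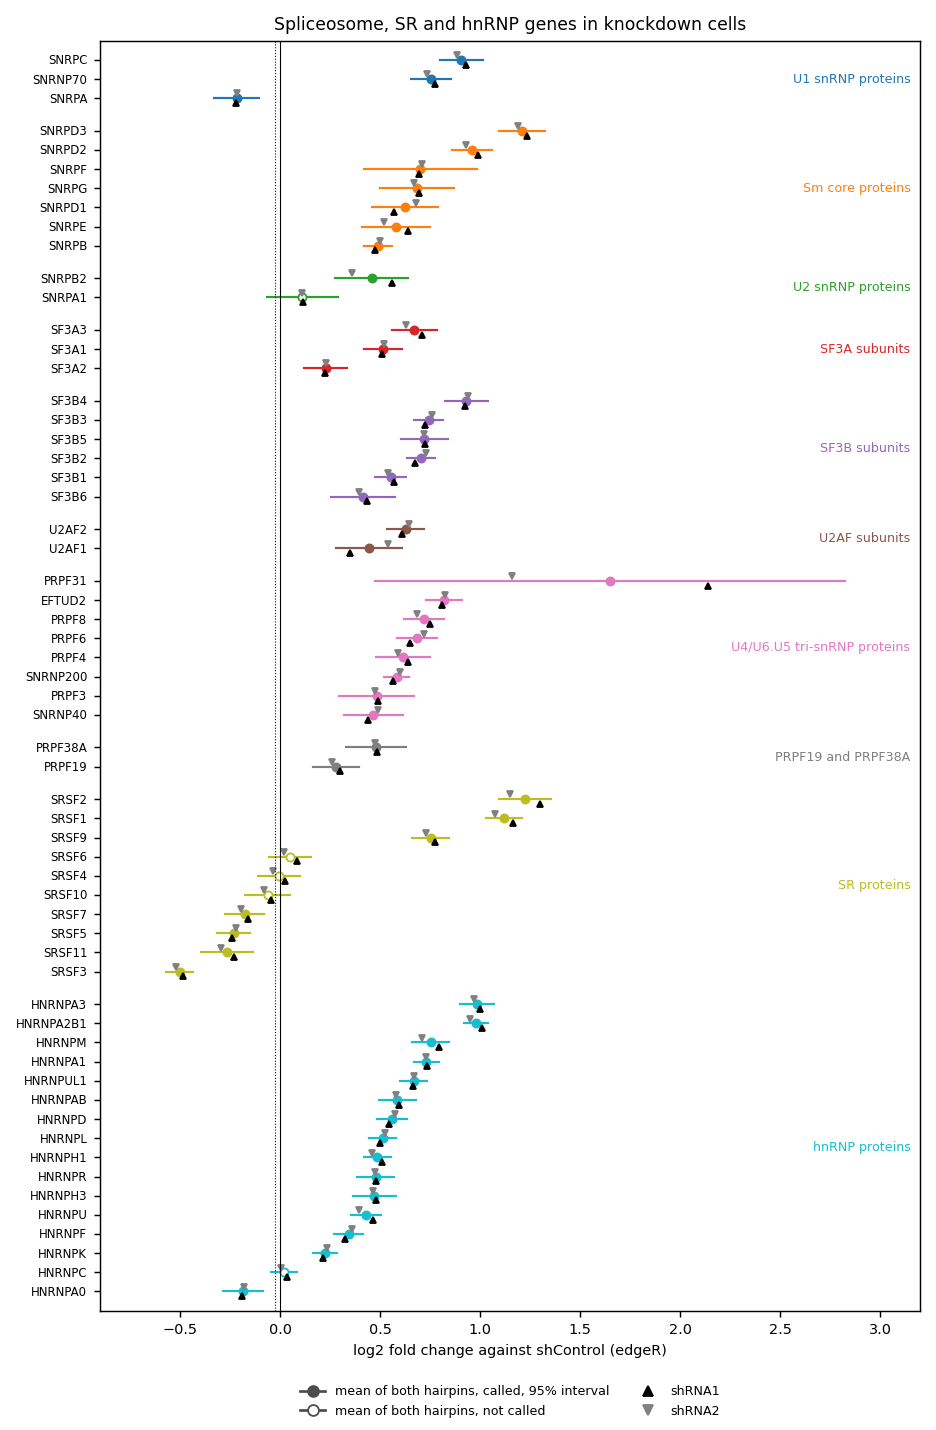
Change of each of the 59 genes on the log2 scale against shControl, by class. Circles are the mean of both hairpins with its 95% interval (filled where called, open where not), upward triangles shRNA1, downward triangles shRNA2, the solid line 0 and the dotted line the median of all tested genes (−0.025). Of 33 machinery genes 31 rose, while the 10 SR genes spread from −0.50 (SRSF3) to 1.23 (SRSF2). PRPF31 has the widest interval.

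The hairpins gave like values. With shRNA1, 48 genes rose and 6 fell (of all tested genes 26.8% and 25.6%, 52.4% in either direction). With shRNA2, 47 rose and 6 fell (26.7% and 26.1%, 52.8% in either direction). The 6 that fell with shRNA1 were 2 without shRNA1 replicate 2 and 3 without shControl replicate 2. Medians over the 59 were 0.57 and 0.54. Calls were the same with both hairpins for 58 genes (47 higher, 6 lower, 5 not called), and PRPF31 was called with shRNA1 only. Both hairpins are compared with the same control libraries, so these calls are not independent of each other. Compared directly, none of the 59 genes differed between shRNA1 and shRNA2 in edgeR or in DESeq2. Across all genes 5 did (0.0312%, 0.00623% higher with shRNA1 and 0.0249% lower). At an unadjusted p under 0.05 there were 2 members of 59, beside 873 of all 16039 genes: SRSF2 (0.15 higher with shRNA1, 95% interval 0.01 to 0.29) and U2AF1 (−0.19, interval −0.38 to −0.003). The near-identical U2AF1L5 differed the other way (0.26, unadjusted p = 0.0135), and the rows summed to 112 and 109 CPM with shRNA1 and 107 and 108 with shRNA2. Leaving out shRNA1 replicate 1 raised the number of members called from 0 to 1, PRPF31.

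The bases before the RefSeq start site are shown for 4 genes that stand for the main behaviours: SRSF1 as an SR gene that rose, SRSF3 as the SR gene that fell most, SF3B4 as the most raised SF3 gene, and HNRNPA2B1 as an hnRNP gene that nearly doubled. Each is 250 bases, 5′ to 3′ on the gene's strand, from RefSeq on GRCh38.p14: SRSF1 at chr17:58007247-58007496 (minus strand), SRSF3 at chr6:36594112-36594361 (plus), SF3B4 at chr1:149927804-149928053 (minus) and HNRNPA2B1 at chr7:26200747-26200996 (minus). Capitals mark the motifs named after them.
SRSF1: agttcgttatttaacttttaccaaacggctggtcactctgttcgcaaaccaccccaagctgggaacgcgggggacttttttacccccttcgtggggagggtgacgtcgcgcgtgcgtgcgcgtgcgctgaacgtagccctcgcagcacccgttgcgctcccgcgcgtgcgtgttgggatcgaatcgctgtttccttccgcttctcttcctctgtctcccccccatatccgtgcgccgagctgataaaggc
SRSF3: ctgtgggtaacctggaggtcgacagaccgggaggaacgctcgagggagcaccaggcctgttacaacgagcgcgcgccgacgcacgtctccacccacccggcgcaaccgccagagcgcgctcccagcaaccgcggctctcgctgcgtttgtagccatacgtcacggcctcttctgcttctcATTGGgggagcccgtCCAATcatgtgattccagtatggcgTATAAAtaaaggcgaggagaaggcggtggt
SF3B4: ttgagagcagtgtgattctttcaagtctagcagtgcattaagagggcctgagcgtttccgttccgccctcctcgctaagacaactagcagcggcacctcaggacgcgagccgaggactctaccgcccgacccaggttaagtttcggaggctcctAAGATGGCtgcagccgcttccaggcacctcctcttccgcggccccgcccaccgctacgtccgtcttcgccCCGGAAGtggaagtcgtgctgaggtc
HNRNPA2B1: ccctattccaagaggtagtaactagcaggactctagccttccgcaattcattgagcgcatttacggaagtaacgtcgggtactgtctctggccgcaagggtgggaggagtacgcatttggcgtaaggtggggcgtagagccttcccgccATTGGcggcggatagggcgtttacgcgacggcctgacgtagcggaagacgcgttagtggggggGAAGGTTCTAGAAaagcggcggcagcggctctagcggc
SRSF1 held none of the motifs searched. SRSF3 held CCAAT on both strands (ATTGG is its reverse complement) and the TATA letters TATAAA. SF3B4 held the YY1 letters AAGATGGC and the ETS letters CCGGAAG, and HNRNPA2B1 held CCAAT, read on the other strand, and a heat shock element, the longer run of capitals.

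These letters, with the E-box CACGTG, the CRE letters TGACGTCA and the NRF1 palindrome, were searched on both strands of 300-base windows (250 before and 50 after the start). RefSeq windows were found for 54 of the 59 genes (73 windows, as some genes have several starts). SNRPD1, PRPF3, SRSF2, HNRNPA1 and SF3B3 had no entry. The ETS letters stood in 30.1% of the 73 windows, beside 10.26% of all 35116 windows and 17.09% of 14840 windows of genes with a mean of at least 1 CPM. They were spread unevenly: 18 of 37 windows of machinery genes (16 of 30 genes), 2 of 11 SR windows and 2 of 25 hnRNP windows. Among the machinery genes were SNRPC, SNRPD2, SF3B4 and U2AF2, which rose, and SNRPA1, which was not called. The SR windows were those of SRSF4, which was not called, and SRSF5, which fell. The CCAAT letters stood in 35.6% of the 73 windows, beside 34.61% of all windows, but in 15 of 25 hnRNP windows (13 of 15 genes) against 1 of 11 SR windows, that of SRSF3. TATAAA stood in 7 of the 73 windows (9.6%), beside 11.53% of all windows and 6.09% of those of expressed genes. The genes were SRSF3, SRSF7 and SRSF11, which fell, SNRPC, HNRNPD and HNRNPAB, which rose, and HNRNPC, which was not called. SRSF7 and SRSF11 each also had a window without these letters. HNRNPA3, HNRNPH3 and HNRNPM were among the 8 windows with CACGTG (7.26% of all windows). SNRNP40 alone held TGACGTCA (all windows 1.85%, expressed genes 2.76%). AAGATGGC stood in 3 windows, 4.1% of the 73 (SF3A1, SF3B2 and SF3B4, all windows 2.89%, expressed genes 4.76%). HNRNPA2B1 alone held the heat shock element (all windows 0.49%, expressed genes 0.35%), and none held the NRF1 letters (1.24% and 1.99%). These are letters in a window, described without a test.

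Among the U1 proteins, SNRPC and SNRNP70 rose and SNRPA fell. SNRPC, which steadies the pairing of U1 RNA with the donor site, stood at 133 and 125 CPM with shRNA1, 123 and 127.5 with shRNA2 and 70.8 and 65.1 in the controls. It was 0.91 ± 0.05 higher on the log2 scale (SE, edgeR adjusted p = 5.59e-10). SNRNP70, the U1-70K protein that contacts SR proteins, stood at 174 and 166 CPM, then 172 and 157, and 99.8 and 98.7 in the controls (0.76 ± 0.05, adjusted p = 1.27e-09). Both lay above the controls in every knockdown library. SNRPA, which binds a loop of U1 RNA, stood at 89.2 and 81.0 CPM with shRNA1, 88.5 and 82.3 with shRNA2 and 100.5 and 97.7 in the controls. It fell by 0.22 ± 0.05 (adjusted p = 0.00257), the 1 machinery gene of 33 to fall. It did not pass against a fold of 1.2 (adjusted p = 0.729), and with total counts in place of TMM it was −0.37. The quotient of SNRPC over SNRPA counts, which no library scaling can change and which was chosen after the values were seen, was 1.39 to 1.55 in the knockdown libraries and 0.705 and 0.666 in the controls.

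All 7 Sm proteins, which form the ring around the U1, U2, U4 and U5 RNAs, rose (median 0.68). SNRPD3 (chr22:24555503-24609980) stood at 121 and 133 CPM with shRNA1, 120.4 and 126 with shRNA2 and 52.5 and 55.6 in the controls. At 1.21 ± 0.05 (2.31-fold, adjusted p = 3.98e-11) it was the most raised of the 7. Its exons share 12.6% of their bases with GUCD1 (156 CPM) on the opposite strand and 12.0% with GGT1 (74.1 CPM) on the same strand, beside 99.7 CPM for SNRPD3 over all libraries without TMM, and whether counting used strand is not given in the sources used here. SNRPD2 stood at 119 and 124 CPM with shRNA1, 118 and 116 with shRNA2 and 61.7 and 60.7 in the controls (0.96 ± 0.05, adjusted p = 1.03e-10). SNRPB was the least raised, from 243 and 238 CPM in the controls to 337 and 331.5 with shRNA1 and 332 and 347 with shRNA2 (0.49 ± 0.03). SNRPE was the next lowest, from 24.0 and 26.2 CPM to 37.8 and 40.6 with shRNA1 and 34.8 and 37.5 with shRNA2 (0.58 ± 0.08). SNRPD1, SNRPG and SNRPF rose by 0.62, 0.68 and 0.70, and in all 7 the groups did not overlap. Summed over the ring, the level was 1.62-fold the control mean with either hairpin.

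The U2-specific proteins differed in their calls. SNRPB2, which binds U2 RNA together with SNRPA1, stood at 44.1 and 41.3 CPM with shRNA1, 36.7 and 37.6 with shRNA2 and 32.0 and 26.2 in the controls (0.46 ± 0.08, adjusted p = 2.69e-04). SNRPA1 stood at 35.9 and 37.4 CPM, then 38.3 and 34.5, and 30.9 and 36.6 in the controls, and its groups overlapped (0.11 ± 0.08, 95% interval −0.07 to 0.29, adjusted p = 0.274). Its sign turned with total counts in place of TMM (−0.043) and without shControl replicate 1 (−0.011), and it was called higher with the length and GC trend removed (0.22, adjusted p = 0.0288). The difference between these genes was not tested.

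The SF3A and SF3B proteins, which hold U2 on the branch site, all rose (9 of 9). In SF3A, SF3A3 went from 61.1 and 66.0 CPM in the controls to 105 and 103 with shRNA1 and 101 and 95.8 with shRNA2 (0.67 ± 0.05, adjusted p = 2.53e-08). SF3A1 rose by 0.52 ± 0.05. SF3A2 shares 12.7% of its exon bases with PLEKHJ1 (37.6 CPM over all libraries without TMM) on the opposite strand. It stood at 105 and 107 CPM with shRNA1, 107 and 106 with shRNA2 and 85.4 and 95.7 in the controls (0.23 ± 0.05, adjusted p = 0.00125). It no longer passed when shControl replicate 1 was left out (0.14, adjusted p = 0.0628), with total counts in place of TMM (0.07, 0.214) or against a fold of 1.2 (0.669).

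SF3B4, which touches the transcript upstream of the branch site, was the most raised SF3B protein, at 148 and 143.5 CPM with shRNA1, 143 and 152 with shRNA2 and 73.0 and 80.6 in the controls (0.93 ± 0.05, adjusted p = 3.55e-10). SF3B3, a scaffold that carries SF3B1, stood at 269 and 274 CPM, then 274 and 282, and 162 and 166.5 in the controls (0.74 ± 0.03, adjusted p = 5.22e-11). SF3B2 and SF3B5 rose by 0.70 and 0.72. SF3B1, the subunit that clamps the branch site and the target of the splicing drugs of the pladienolide group, went from 142 and 149 CPM to 213 and 218.5 with shRNA1 and 209 and 214 with shRNA2 (0.55 ± 0.04, adjusted p = 3.68e-09). SF3B6, which lies next to the branch adenosine, went from 43.9 and 48.7 CPM to 57.5 and 67.6 with shRNA1 and 58.8 and 63.4 with shRNA2 (0.41 ± 0.08, adjusted p = 2.25e-04). The 6 SF3B genes ranged from 0.41 to 0.93, and their summed level was 1.60-fold (shRNA1) and 1.63-fold (shRNA2) that of the controls.

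Both U2AF subunits rose. U2AF2, which binds the pyrimidine tract, stood at 191 and 210 CPM with shRNA1, 205 and 207 with shRNA2 and 129 and 134 in the controls (0.63 ± 0.04, adjusted p = 4.90e-09). U2AF1, which reads the AG of the acceptor, stood at 45.5 and 54.2 CPM, then 54.0 and 60.3, and 38.6 and 39.9 in the controls (0.44 ± 0.08, adjusted p = 1.64e-04). U2AF1 has a near-identical copy in the table, U2AF1L5, at 47.7 to 66.2 CPM in the knockdown and 39.0 and 42.0 in the control libraries, so how reads fall between them is uncertain. Summed, the rows gave 107 to 112 CPM against 77.6 and 81.8, which is 0.45 higher on the log2 scale, as for U2AF1 alone.

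All 8 proteins of the U4/U6.U5 tri-snRNP rose (median 0.65). EFTUD2, the GTPase of U5, stood at 204.5 and 217.5 CPM with shRNA1, 209 and 218 with shRNA2 and 124 and 116.5 in the controls (0.82 ± 0.04, adjusted p = 2.05e-10). PRPF8, which forms the catalytic cavity, rose by 0.72 ± 0.05 and PRPF6, which bridges U5 and U4/U6, by 0.69 ± 0.05. PRPF4 of the U4/U6 particle rose by 0.61 ± 0.06. SNRNP200, the helicase that unwinds U4 from U6, went from 276 and 273 CPM to 405 and 408.5 with shRNA1 and 417 and 416 with shRNA2 (0.58 ± 0.03). PRPF3 went from 28.5 and 25.2 CPM to 34.4 and 40.9 with shRNA1 and 36.6 and 38.0 with shRNA2 (0.48 ± 0.09, adjusted p = 2.10e-04). SNRNP40, a ring-shaped U5 protein, was the least raised, from 36.6 and 37.4 CPM to 53.5 and 47.0 with shRNA1 and 52.0 and 52.1 with shRNA2 (0.47 ± 0.07, adjusted p = 3.18e-05). In each of these the groups did not overlap.

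PRPF31, a protein of the U4/U6 particle that is mutated in a form of retinitis pigmentosa, behaved less evenly than the others. It had 237 and 647 counts with shRNA1, 503 and 236 with shRNA2 and 114 and 149 in the controls. That made 15.9 and 33.8 CPM, then 14.0 and 11.3, and 6.12 and 5.32 in the controls. Every knockdown library lay above both controls, while shRNA1 replicate 2 stood far above replicate 1. The log2 fold change was 1.65 ± 0.41 (95% interval 0.47 to 2.82, adjusted p = 0.0336), 2.14 with shRNA1 (0.0233) and 1.16 with shRNA2 (0.112), and 0.98 between the hairpins (interval −0.22 to 2.18, adjusted p = 0.931). The call was lost with a replicate block (1.64, adjusted p = 0.0751), against a fold of 1.2 (0.0502), and without replicate 1 (0.11) or 2 (0.0896) of shRNA2 or replicate 1 (0.15) or 2 (0.192) of shControl. Without shRNA1 replicate 1 it was 1.88 (adjusted p = 8.52e-08), and without shRNA1 replicate 2 1.34 (1.08e-05). Its exons share 10.0% of their bases with TFPT (1.24 CPM) and 22.0% with AC245052.4 (0.093 CPM) on the opposite strand. PRPF31 itself stood at 14.1 CPM over all libraries without TMM.

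PRPF19, the ubiquitin ligase that gives the PRP19 complex its name, and PRPF38A, a protein of the complex before activation, rose less. PRPF38A stood at 45.1 and 45.1 CPM with shRNA1, 43.9 and 45.8 with shRNA2 and 33.8 and 30.9 in the controls (0.48 ± 0.07, adjusted p = 2.73e-05). PRPF19 stood at 86.1 and 92.5 CPM, then 89.8 and 84.2, and 71.4 and 73.7 in the controls (0.28 ± 0.05, adjusted p = 3.44e-04). The call of PRPF19 was lost with total counts in place of TMM (0.13, adjusted p = 0.0545) and against a fold of 1.2 (0.296).

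The SR proteins split, with 3 higher, 4 lower and 3 not called of 10. Their median log2 fold change was −0.034, and it turned to 0.12 once a trend on exon length and GC content was removed, and to 0.01 without shControl replicate 2. SRSF2, known as SC35 and a mark of nuclear speckles (chr17:76734115-76737374), stood at 182 and 157 CPM with shRNA1, 157 and 148 with shRNA2 and 70.0 and 67.5 in the controls. It was 1.23 ± 0.06 higher (2.34-fold, adjusted p = 1.02e-09), the second most raised of the 59 after PRPF31. SRSF1, known as SF2/ASF and an activator of many exons, stood at 228 and 239.8 CPM with shRNA1, 227 and 213 with shRNA2 and 103 and 106 in the controls (1.12 ± 0.04, 2.17-fold, adjusted p = 4.63e-12). SRSF9 went from 93.3 and 91.3 CPM to 161 and 154.5 with shRNA1 and 150.0 and 157 with shRNA2 (0.75 ± 0.04, adjusted p = 5.49e-10). For each of the 3 the lowest knockdown library was far above the highest control. MFSD11, at 14.1 CPM, covers 36.7% of the exon bases of SRSF2 on the opposite strand, and GATC, at 44.2 CPM, covers 46.2% of those of SRSF9. AC015813.2 shares 56.6% of the exon bases of SRSF1 on the same strand but had only 0.684 CPM.

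SRSF3, a short SR protein known for roles in splicing and mRNA export, went the other way. It stood at 339.9 and 325 CPM with shRNA1, 331 and 318.5 with shRNA2 and 466.5 and 464.5 in the controls. It fell by 0.50 ± 0.03 (0.706-fold, 95% interval −0.57 to −0.44, adjusted p = 1.51e-09), the largest fall among the 59. It was lower in all 4 knockdown libraries and kept its call in each of the 14 alternatives run. SRSF5, SRSF7 and SRSF11 also fell, by less. SRSF5 stood at 124 and 126 CPM, then 125 and 129.6, and 150.0 and 146.5 in the controls (−0.23 ± 0.04, adjusted p = 1.14e-04). SRSF7, known as 9G8, stood at 89.9 and 89.1 CPM, then 88.7 and 86.2, and 99.9 and 99.98 in the controls (−0.18 ± 0.05, adjusted p = 0.00353). SRSF11 stood at 63.2 and 56.6 CPM, then 59.3 and 55.1, and 68.9 and 71.6 in the controls (−0.26 ± 0.06, adjusted p = 0.00173). In all 3 the knockdown libraries lay below both controls. With the trend on exon length and GC content removed, the calls of SRSF7 (−0.05, adjusted p = 0.420) and SRSF11 (−0.10, 0.182) were lost and SRSF5 shrank to −0.11 (0.0219). None of these 3 passed against a fold of 1.2 (adjusted p = 0.701 for SRSF5, 0.965 for SRSF7 and 0.406 for SRSF11), and with total counts in place of TMM they stood at −0.39, −0.33 and −0.42.

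SRSF4, SRSF6 and SRSF10 were not called and their groups overlapped. SRSF4 ranged from 107.5 to 118 CPM in the knockdown libraries, with 109 and 119.5 in the controls (−0.005, interval −0.11 to 0.10). SRSF6 ranged from 152 to 173 CPM, with 157 and 164 in the controls (0.05, interval −0.06 to 0.16). SRSF10 ranged from 76.0 to 81.8 CPM, with 81.5 and 85.3 in the controls (−0.06, interval −0.17 to 0.05). The sign of each changed with the processing: SRSF4 (0.13, adjusted p = 0.0306) and SRSF10 (0.11, 0.0837) with the length and GC trend removed, and SRSF6 (−0.10, 0.0878) with total counts in place of TMM.

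**Figure D2:**
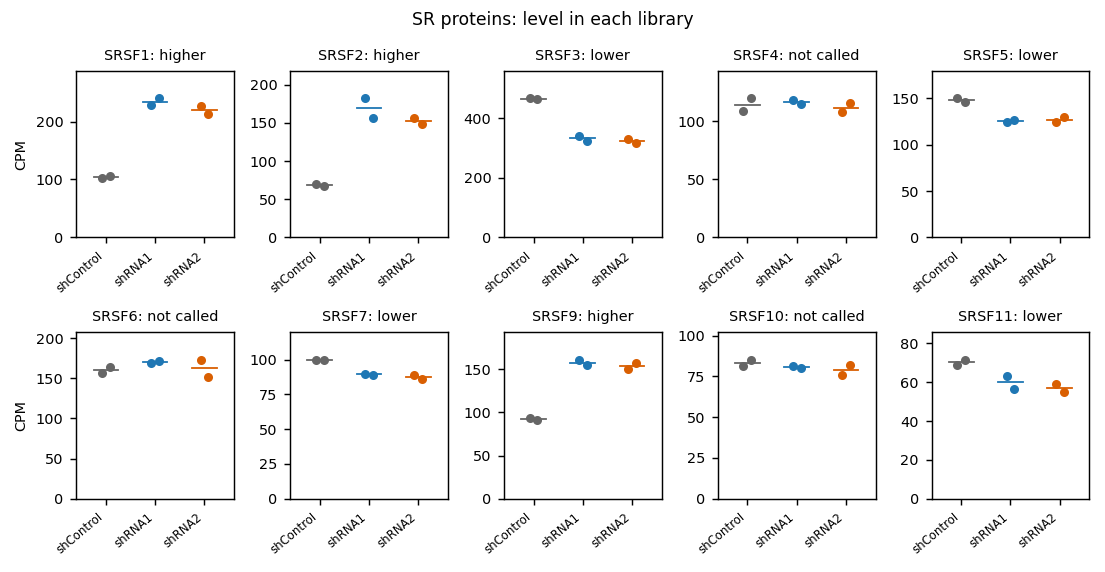
Level of each SR gene in every library, in CPM over TMM-scaled library sizes, with a panel and a linear axis from 0 for each gene. Points are libraries, short lines group means of 2 libraries, and the panel titles give the call for the mean of both hairpins. SRSF1, SRSF2 and SRSF9 lie well above the controls in all 4 knockdown libraries and SRSF3 lies below them, while SRSF4, SRSF6 and SRSF10 overlap.

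The mix of SR transcripts differed more than their sum. The 10 genes summed to 0.146 to 0.156% of the scaled library with the hairpins and to 0.140 and 0.142% with shControl (1.09-fold with shRNA1, 1.05-fold with shRNA2). The quotient of SRSF1 over SRSF3 counts was 0.670 and 0.739 with shRNA1, 0.685 and 0.669 with shRNA2 and 0.220 and 0.228 in the controls, 3.08-fold higher. That of SRSF2 over SRSF3 was 0.465 to 0.536 against 0.150 and 0.145, 3.31-fold higher. These quotients were chosen after the values were seen and do not depend on library scaling. Per kb of annotated exon, SRSF3 was the highest SR gene in the controls, at 65.4 CPM per kb, ahead of SRSF6 at 34.9 and SRSF1 at 31.3. With shRNA1 SRSF1 stood at 70.0 and SRSF2 at 56.2 CPM per kb, above SRSF3 at 46.7, and with shRNA2 the same genes stood at 65.8, 50.6 and 45.7. The exon length joins all annotated isoforms, so these levels are approximate.

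Of the 16 hnRNP genes 14 rose, 1 fell and 1 was not called (median 0.50). HNRNPA3 and HNRNPA2B1 had the highest values. HNRNPA3 stood at 261 and 257 CPM with shRNA1, 259 and 249 with shRNA2 and 135 and 125 in the controls (0.98 ± 0.04, adjusted p = 1.38e-11). HNRNPA2B1 (chr7:26173057-26201529), which binds exons and RNA bound for transport, stood at 889 and 901 CPM with shRNA1, 850.3 and 867.5 with shRNA2 and 450.1 and 439.6 in the controls. It was 0.98 ± 0.03 higher (1.97-fold, adjusted p = 2.64e-13), the smallest p among the 59. HNRNPA1, the best known splicing silencer of the family, stood at 704.5 and 711 CPM, then 701 and 709, and 417 and 434 in the controls (0.73 ± 0.03, adjusted p = 9.32e-12). HNRNPAB rose by 0.59 ± 0.04. In these 4 genes every knockdown library lay above both controls.

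HNRNPM, which promotes exon skipping, rose by 0.75 ± 0.04 and HNRNPUL1, a relative of HNRNPU, by 0.67 ± 0.03. HNRNPD, which also binds AU-rich elements and affects mRNA decay, rose by 0.56 ± 0.04. HNRNPL, a binder of CA repeats, rose by 0.51 ± 0.03 and the G-run binders HNRNPH1 and HNRNPH3 by 0.49 ± 0.03 and 0.47 ± 0.05. HNRNPR rose by 0.48 ± 0.04, HNRNPU, a nuclear matrix protein, by 0.43 ± 0.04, and HNRNPF, another G-run binder, by 0.34 ± 0.03. HNRNPK, which binds C-rich RNA, had the smallest call upward: 696.5 and 674 CPM with shRNA1, 689 and 702 with shRNA2 and 584 and 598 in the controls (0.22 ± 0.03, adjusted p = 5.49e-06). It was 0.07 (0.0338) with total counts in place of TMM and 0.35 (5.49e-09) with the length and GC trend removed, and it did not pass against a fold of 1.2 (0.884). In all of these genes the groups did not overlap.

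HNRNPA0 and HNRNPC stood apart from the class. HNRNPA0, an intronless member of the A/B group, stood at 156 and 149 CPM with shRNA1, 162 and 144.5 with shRNA2 and 171 and 177 in the controls. It fell by 0.185 ± 0.05 (adjusted p = 0.00289), a call lost without shControl replicate 2 (−0.17, adjusted p = 0.0505), with the trend on exon length and GC content removed (−0.02, 0.715) and against a fold of 1.2 (0.935). With total counts in place of TMM it was −0.34. HNRNPC, which binds uridine tracts and keeps U2AF2 off cryptic exons, stood at 555 and 578 CPM, then 543 and 567, and 555 and 551 in the controls. Its groups overlapped, and its log2 fold change was 0.02 ± 0.03, with an interval of −0.04 to 0.09 (adjusted p = 0.587). With total counts in place of TMM it was called lower (−0.14, adjusted p = 7.12e-04), and with the length and GC trend removed higher (0.16, 2.68e-04). The quotient of HNRNPA2B1 over HNRNPC counts, again chosen after the values were seen, was 1.53 to 1.60 in the knockdown libraries and 0.811 and 0.798 in the controls (1.94-fold), so these transcripts changed unequally whatever the scaling.

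**Figure D3:**
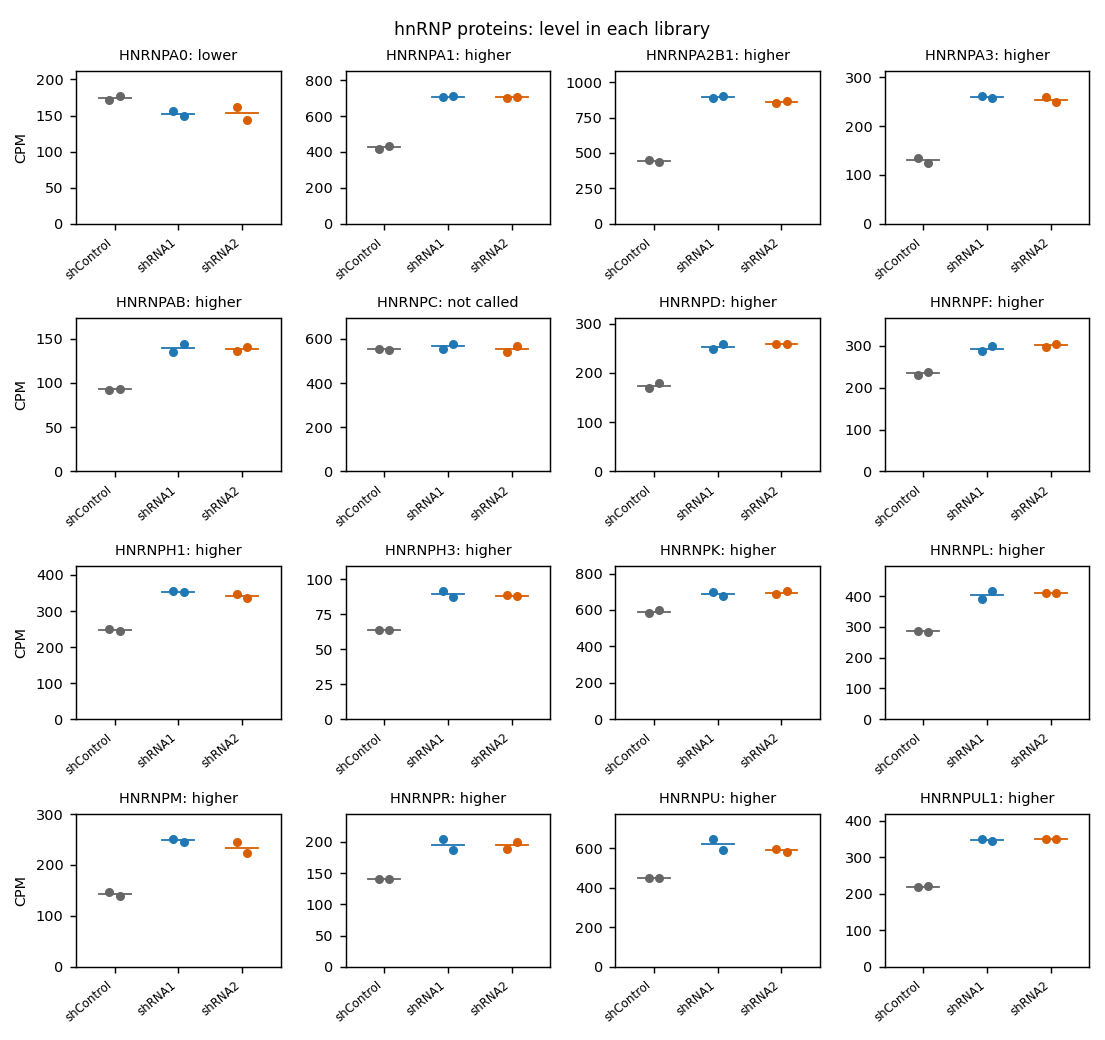
Level of each hnRNP gene in every library, in CPM over TMM-scaled library sizes, with a panel and a linear axis from 0 for each gene. Points are libraries, short lines group means of 2 libraries, and panel titles give the call for the mean of both hairpins. HNRNPA1, HNRNPA2B1 and HNRNPA3 show the knockdown libraries well above both controls, HNRNPC lies level and HNRNPA0 lies slightly lower.

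Per kb of annotated exon, HNRNPK was the highest hnRNP gene in the controls (115.6 CPM per kb), followed by HNRNPA1 (83.5), HNRNPC (75.6) and HNRNPF (72.1), with HNRNPA2B1 at 48.0. With shRNA1 HNRNPA1 stood at 139, HNRNPK at 134, HNRNPA2B1 at 96.6, HNRNPF at 90.3 and HNRNPC at 77.5 CPM per kb. The order was the same with shRNA2, at 138, 136, 92.7, 92.6 and 75.9. HNRNPA1 and HNRNPK lay close together there, as did HNRNPA2B1 and HNRNPF, while HNRNPC was lowest of these 5. Over all 59 genes SNRPB was the highest per kb in the controls (188) and PRPF31 the lowest (2.14).

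The 59 genes together made up 1.21 to 1.22% of the scaled library with the hairpins and 0.863 to 0.871% in the controls, 1.41-fold with shRNA1 and 1.39-fold with shRNA2. The hnRNP genes were the bulk of it, at 0.612 to 0.622% against 0.436 to 0.438% (1.42-fold and 1.40-fold). The 33 machinery genes summed to 1.54-fold the control level with either hairpin.

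**Figure D4:**
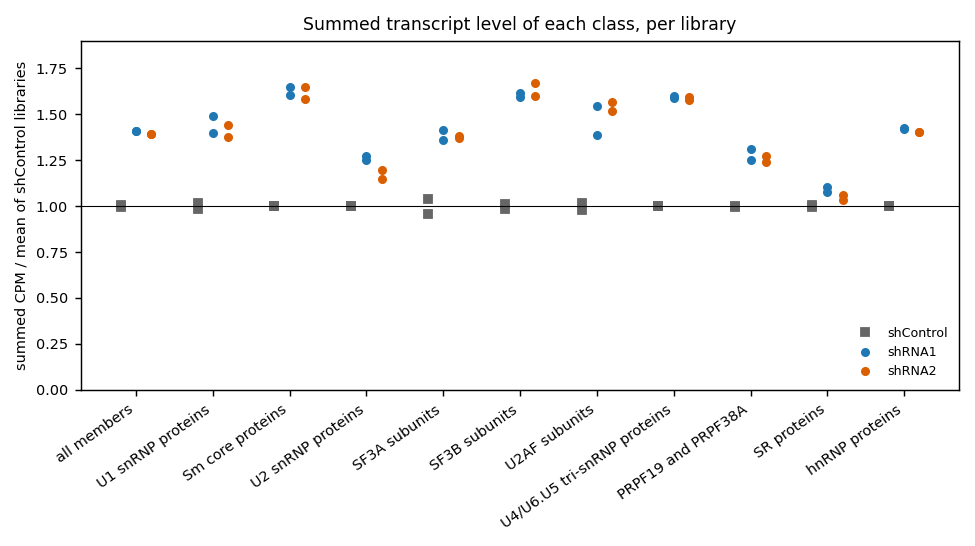
Summed CPM of each class in every library, divided by the mean of the shControl libraries, on a linear axis from 0. Squares are controls and circles knockdown libraries (blue shRNA1, orange shRNA2). The Sm, SF3B and tri-snRNP classes lie near 1.6, the hnRNP class near 1.4, and the SR class closest to 1.

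Reads of processed copies could bear on these values. The table held 200 rows named as copies of 31 of the genes (the symbol followed by P or L and digits), and 188 of them had a mean under 1 CPM. The 76 copies of HNRNPA1 summed to 56.6 to 64.4 CPM with the hairpins and 30.6 to 31.3 CPM in the controls, beside 701 to 711 and 417 to 434 CPM for HNRNPA1 itself. Among them HNRNPA1P7, HNRNPA1P48 and HNRNPA1P10 rose by 0.84, 0.90 and 1.08, and HNRNPA1L2 stood at 1.61 to 6.18 CPM against 0.322 and 0.499. HNRNPA3P6 rose by 1.17 and HNRNPLP2 by 0.75, in the direction of HNRNPA3 and HNRNPL. HNRNPCP2 (0.14), HNRNPKP4 (−0.06), SNRPA1P1 (−0.09) and SNRPEP4 (0.63) were not called. U2AF1L4, a separate gene related to U2AF1, fell by 1.02, from 9.17 and 7.95 CPM to 3.45 to 5.50. Whether reads that fit a gene and its copy equally were counted is not given in the sources used here.

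Annotated isoforms are a feature the selection did not use. In GENCODE 29 all 10 SR genes had a transcript marked for NMD, against 11 of 16 hnRNP genes and 12 of 33 machinery genes. Retained-intron transcripts were annotated for 8, 12 and 19 of them. Counts per gene sum over isoforms, so how far such transcripts contributed was not measured. The number of annotated transcripts ran from 1 (PRPF6 and SF3B5) to 50 (HNRNPH1). It was not allowed for in comparing the classes, and no share over all genes was taken. Across the 59 genes the log2 fold change had a Spearman correlation of −0.20 with exon length, 0.34 with GC content and −0.15 with the control level (Pearson −0.24, 0.32 and −0.29). The genes share libraries and are not replicates, so these are descriptions. Over all tested genes the Spearman correlations with exon length and GC content were −0.07 and 0.10, and that with the control level was not computed. The control libraries enter both the fold change and the control level, so these are not independent. PRPF31 had the lowest control level of the 59 (5.715 CPM) and the largest rise (1.65).

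Other genes of splicing, 126 rows in 8 lists chosen by role with earlier results known, moved less uniformly. Of the 123 tested, 71 rose, 19 fell and 33 were not called, with a median of 0.31. Some of these rows were scarcer than any member (LSM2 had 33 and 39 counts in the controls). How far scarcity lowered the number called was not tested. Of all tested genes 28.6% rose and 28.9% fell. The list nearest to the members, 25 other tri-snRNP, U1 and U2 proteins, had 20 higher and 3 lower (median 0.42). In it DDX46, a helicase of U2 assembly, rose by 1.14 ± 0.06 and DDX23, a helicase of the tri-snRNP, by 1.07 ± 0.05. PRPF39, a U1-associated protein, fell by 0.68 ± 0.11 and U2SURP by 0.38 ± 0.05. Of the 8 LSM proteins, whose ring sits on U6 RNA or, in another form, on decaying mRNA, 4 rose and 1 fell (median 0.31). LSM2 went from 1.77 and 1.39 CPM to 4.28 to 8.42 (1.85 ± 0.28), LSM3 rose by 1.27 ± 0.07, and LSM8, specific to the U6 ring, fell by 0.49 ± 0.08.

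The SMN complex and the methylosome load the Sm ring on the RNA, and 7 of their 13 genes rose and 2 fell (median 0.28). STRAP rose by 0.62 ± 0.04 and GEMIN7 by 0.57 ± 0.13, while CLNS1A, which holds Sm proteins before loading, fell by 0.16 ± 0.06. SMN2 fell by 0.80 ± 0.28, called with shRNA1 (edgeR adjusted p = 0.0243) and not with shRNA2 (0.161). SMN1 and SMN2 are near-identical, and their reads cannot be told apart with certainty. Of 17 genes of the PRP19 complex and its partners 8 rose and 5 fell (median 0.25), led by BCAS2 (1.12 ± 0.10) and ISY1 (0.82 ± 0.07) on the upper side and SYF2 (−0.76 ± 0.08) and CWC22 (−0.39 ± 0.11) on the lower. Of 10 minor spliceosome genes 4 rose and 1 fell (median 0.30). SNRNP25 went from 12.0 and 11.9 CPM to 36.0 to 42.7 (1.74 ± 0.09), RNPC3 rose by 0.70 ± 0.24 and SNRNP48 fell by 0.40 ± 0.10. In the exon junction complex and its partners 5 of 9 rose and 1 fell (median 0.16): ALYREF, an mRNA export adaptor, went from 33.5 and 32.5 CPM to 104 to 112 (1.73 ± 0.06), EIF4A3, the core helicase, rose by 0.54 ± 0.05, and RNPS1 fell by 0.255 ± 0.04.

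Of 15 tested SR-related proteins and SR kinases 8 rose and 3 fell for the mean of both hairpins (median 0.33). With shRNA1 alone 3 were called lower, and with shRNA2 alone 2. The scaffold SRRM1 rose by 0.73 ± 0.05 and TRA2B, an SR-like activator, by 0.73 ± 0.04. All 3 that fell were of the CLK family, nuclear kinases that phosphorylate SR proteins: CLK4 fell by 0.81 ± 0.24, CLK2 by 0.77 ± 0.15 and CLK3 by 0.20 ± 0.07, and CLK1 was at −0.29 ± 0.15 and not called. CLK4 was scarce, at 1.62 to 2.64 CPM with the hairpins and 3.54 and 3.89 in the controls. SRPK1, a kinase that acts on SR proteins mainly in the cytoplasm, rose by 0.33 ± 0.05. Of 26 tested rows of other hnRNP and related RNA-binding proteins 15 rose and 3 fell (median 0.25). TARDBP (TDP-43) rose by 1.11 ± 0.04. PTBP3, a tract binder, fell by 1.09 ± 0.04, from 436 and 444 CPM to 198 to 216, MBNL2 by 0.74 ± 0.06 and QKI by 0.68 ± 0.04. SRSF12, RALYL and ESRP1 were too low to test.

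**Figure D5:**
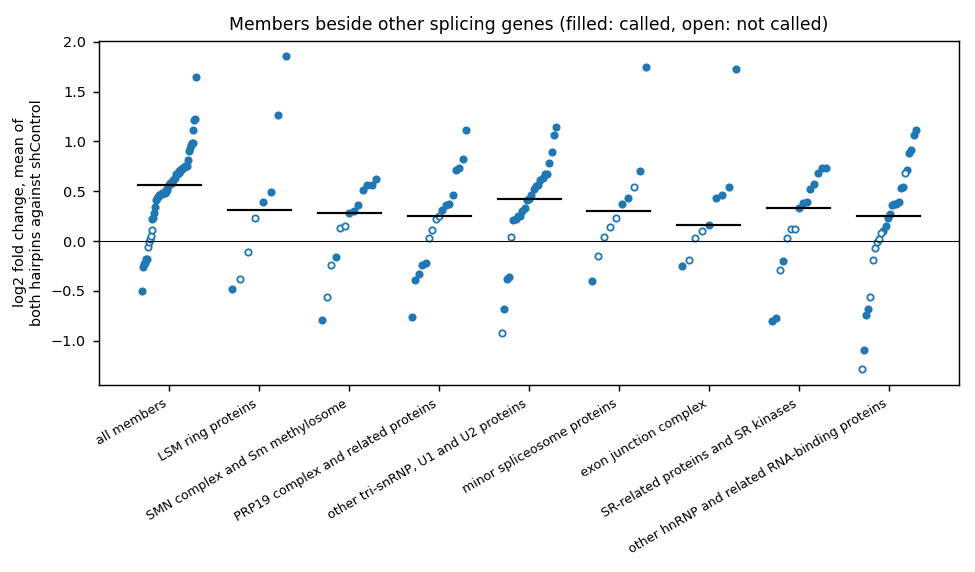
Log2 fold change of the mean of both hairpins against shControl for the 59 genes and the 8 lists of other splicing genes, with 1 point for each tested row (filled where called, open where not) and a bar at each list's median. The median of the 59 genes is 0.56 and those of the other lists run from 0.16 to 0.42, each with members on both sides of 0.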

How the data were processed

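RNA sequencing of 786-O cells gave 6 libraries in 3 groups of 2 (shRNA1, shRNA2, shControl). The authors deposited whole-number counts for each gene. TRIzol-extracted total RNA was made into libraries with an Abclonal kit and read paired-end, per the labels. Per the submitters' processing notes, FastQC 0.11.9, Trim Galore 0.6.7, HISAT2 2.2.1 and StringTie 2.2.1 were used with hg38. How reads were counted (tool, annotation, strand, multi-mapping reads) is not given in the sources used here.

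Tested genes passed filterByExpr by group, scaling was by TMM, and edgeR 4.0.16 (quasi-likelihood, robust, R 4.3.3, limma 3.58.1) fitted a mean per group to all 6 libraries. Calls were made at an adjusted p under 0.05 (Benjamini-Hochberg over all tested genes). Levels are CPM over TMM-scaled sizes. Positions, exon lengths and overlaps come from GENCODE 29, which held 58381 (96.3%) of the gene IDs and all 59 genes. Whether replicates were separate cultures is not stated, and the p-values measure only the spread between these libraries, which may be technical.

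The 59 genes and all lists were chosen with earlier results of these data known. Named are all 59, with values in every library for up to 2 highest and 2 lowest called per class, the 2 highest and 2 lowest called of each other list, copies with a mean of at least 1 CPM, and LINC02068; CLK3, CLK1, SRPK1 and QKI were named after their values were seen. An item within this rule is not reported here. Alternatives were DESeq2 1.42.0, RLE factors, total counts, no filter, a mean of 1 CPM with 10 counts in 2 libraries as a stricter filter, a test against a fold of 1.2, a replicate block, removal of a length and GC trend (mgcv 1.9.3), and each library left out. The code was tested on simulated data.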

Additional observations from a re-analysis of the deposited data

How the results depend on the processing

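The count of 48 higher genes ranged from 44 (against a fold of 1.2) to 52 (length and GC trend removed) over the 14 alternatives, with 48 in DESeq2 and 46 to 48 with 1 library left out. Of all tested genes 28.6% were higher in the main fit, 19.3% against a fold of 1.2 and 26.2% in DESeq2. With the length and GC trend removed 33.0% were higher, so that setting raised the share over all genes as well. Of the 48 members, 44 were called higher in every alternative. The 6 lower genes were less stable: SRSF3 alone was lower in every alternative. With the test against a fold of 1.2 set aside, 3 were lower in all the others (SRSF3, SNRPA and SRSF5). The test against a fold of 1.2 left 1 lower gene for the mean, 1 for shRNA1 and 1 for shRNA2. Removal of the length and GC trend left 3, 3 and 3. Of all tested genes 20.2% and 24.8% were lower for the mean in these settings, beside 28.9% in the main fit. With 1 library left out (its lone partner then borrows the spread of the other groups) the lower genes for shRNA1 ranged from 2 to 6, and the genes called between hairpins from 0 to 1 (PRPF31).

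Total counts in place of TMM gave 46 higher and 9 lower members, beside 21.2% and 37.6% of all tested genes. They moved the median of all genes from −0.025 to −0.181 and the share of higher among all calls from 49.7% to 36.0%. Relative to that shift the members' direction held, but HNRNPC (−0.14), SNRPA1 (−0.043) and SRSF6 (−0.10) turned, and HNRNPC, SRSF4 and SRSF10 were called lower. With the length and GC trend removed the share was 57.1%, and SRSF4 (0.13), SRSF10 (0.11) and the median of the SR proteins (0.12) turned, while the stricter filter turned HNRNPC (−0.0005). The length and GC setting also called SRSF4, SRSF6, SNRPA1 and HNRNPC higher. With 1 library left out SNRPA1 ranged from −0.0106 to 0.2375, SRSF4 from −0.0791 to 0.0615, SRSF6 from −0.0078 to 0.0915 and the SR median from −0.091 to 0.014. The cause of these changes was not tested.

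Same-numbered replicates did not deviate together over all genes (correlations −0.001, 0.011 and −0.029 over 16039 genes). With 2 libraries a group this cannot settle whether the numbers pair libraries, and the labels do not say. A replicate block in edgeR gave 47 higher and 6 lower members for the mean, with the call of PRPF31 lost (1.64, adjusted p = 0.0751). It gave 47 and 6 with shRNA1, 47 and 6 with shRNA2, and 0 between hairpins. Of all tested genes 28.4% were higher and 28.8% lower for the mean with this block.

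With 2 libraries a group, small changes rest on few values, and the alternatives were not run for the other splicing genes or the copies.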

Other observations

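MATR3, which encodes the nuclear matrix protein matrin 3, has 2 rows in the table under different gene IDs, and reads were split between them unevenly. One row stood at 269 and 275 CPM with shRNA1, 178 and 176 with shRNA2 and 166 and 109 in the controls, and the other at 10.9 and 2.62, 80.6 and 104, and 4.34 and 65.5. Neither was called. Summed, they gave 258 to 280 CPM in the knockdown and 170.5 and 175 CPM in the control libraries, 0.67 higher on the log2 scale. SMN1 and SMN2 summed to 3.03 to 7.86 CPM against 8.21 and 8.03.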
